A study of Mus musculus with 6 samples.

Results

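The 30 genes described here run the cell cycle. They were taken by symbol from the 23396 genes of the deposited table and fall into 9 genes of DNA replication and 21 genes of mitosis. The replication genes are Mcm2, Mcm3, Mcm4, Mcm5, Mcm6, Pcna, Rrm1, Rrm2 and Tyms. The mitotic genes are Mki67, Top2a, Ccnb1, Ccnb2, Ccna2, Cdk1, Bub1, Bub1b, Aurka, Aurkb, Plk1, Birc5, Cdc20, Cenpe, Cenpf, Kif11, Kif20a, Ube2c, Nusap1, Prc1 and Tpx2. RNA came from flash-frozen right kidneys of male mice aged 6 months, in 2 groups of 3 libraries. The Far2 knockout mice were homozygous for the knockout allele of the strain C57BL/6N-Far2tm2a(KOMP)Wtsi/2J, and the wild-type mice were C57BL/6N. The product of Far2, fatty acyl-CoA reductase 2, makes fatty alcohols. The comparison asks whether levels of these genes differ between the genotypes.

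A dividing cell copies its DNA in S phase and parts the copies in mitosis. The Mcm proteins form the helicase that opens DNA, Pcna is the clamp that holds the polymerases on it, and the products of Rrm1, Rrm2 and Tyms make its building blocks. Mitotic genes are transcribed late in the cycle. In resting cells the DREAM complex holds many of them down through the CHR element (cell cycle genes homology region), often next to CCAAT boxes that bind NF-Y, while many replication genes are held down through E2F sites. Most cells of the adult kidney rest, and tubule cells can enter the cycle again after injury.

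The libraries held 15261362 to 20631158 fragments, and levels are given as CPM, counts of fragments scaled to a common library size by TMM. Libraries carry the numbers 0, 1 and 2 of the deposited table, which match no sample label, so no library of one group is paired with one of the other. The samples are labelled as biological replicates. Kidney identity was plain in both groups: 10 proximal tubule markers, Kap, Lrp2 and Slc27a2 the most abundant, summed to 39100, 41500 and 40400 CPM in knockout libraries and to 34700, 34600 and 41600 CPM in wild-type libraries. Far2 had 28, 19 and 31 fragments in knockout libraries and 40, 40 and 22 in wild-type libraries, which overlap, so its RNA does not check the labels. The log2 fold change of Far2 was -0.23 (SE 0.24; adjusted p = 0.781, edgeR quasi-likelihood F test, Benjamini-Hochberg). Its exons overlap genes on the other strand by 918 bases, so the count of Far2 is uncertain. Wild-type library 0 stood apart in injury markers. Havcr1, the kidney injury molecule, was at 0.740, 0.798 and 0.916 CPM in knockout libraries and at 21.5, 0.617 and 0.844 CPM in wild-type libraries. Results that rest on that library are given with and without it. Over all tested genes, wild-type library 1 was the most distant of its group. It differed from library 0 by 23.7 and from library 2 by 18.5 times the counting variance, against 13.4 between libraries 0 and 2. Ranges with each library left out in turn are given at the end.

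Of the 30 genes 26 were tested, and no difference between knockout and wild type passed the test. The replication genes were present at steady levels in all 6 kidneys, whereas the mitotic genes were scarce and most of them varied more. The mitotic median was 2.33-fold between the lowest and the highest of the 6 libraries. Few fragments widen this ratio by themselves, and the classes were not matched for level. The lowest mitotic levels were in knockout library 0 and the highest in wild-type library 0, and the other 4 libraries lay between them with the genotypes mixed. Prc1 and Tyms had lower knockout levels at an unadjusted p under 0.05 both with and without wild-type library 0, but not after adjustment. The 2 fits share most libraries. Such a result was given by 5.14% of all tested genes with all libraries and by 7.06% without wild-type library 0. In a whole kidney, fewer dividing cells and less RNA per cell cannot be told apart.

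**Figure D1:**
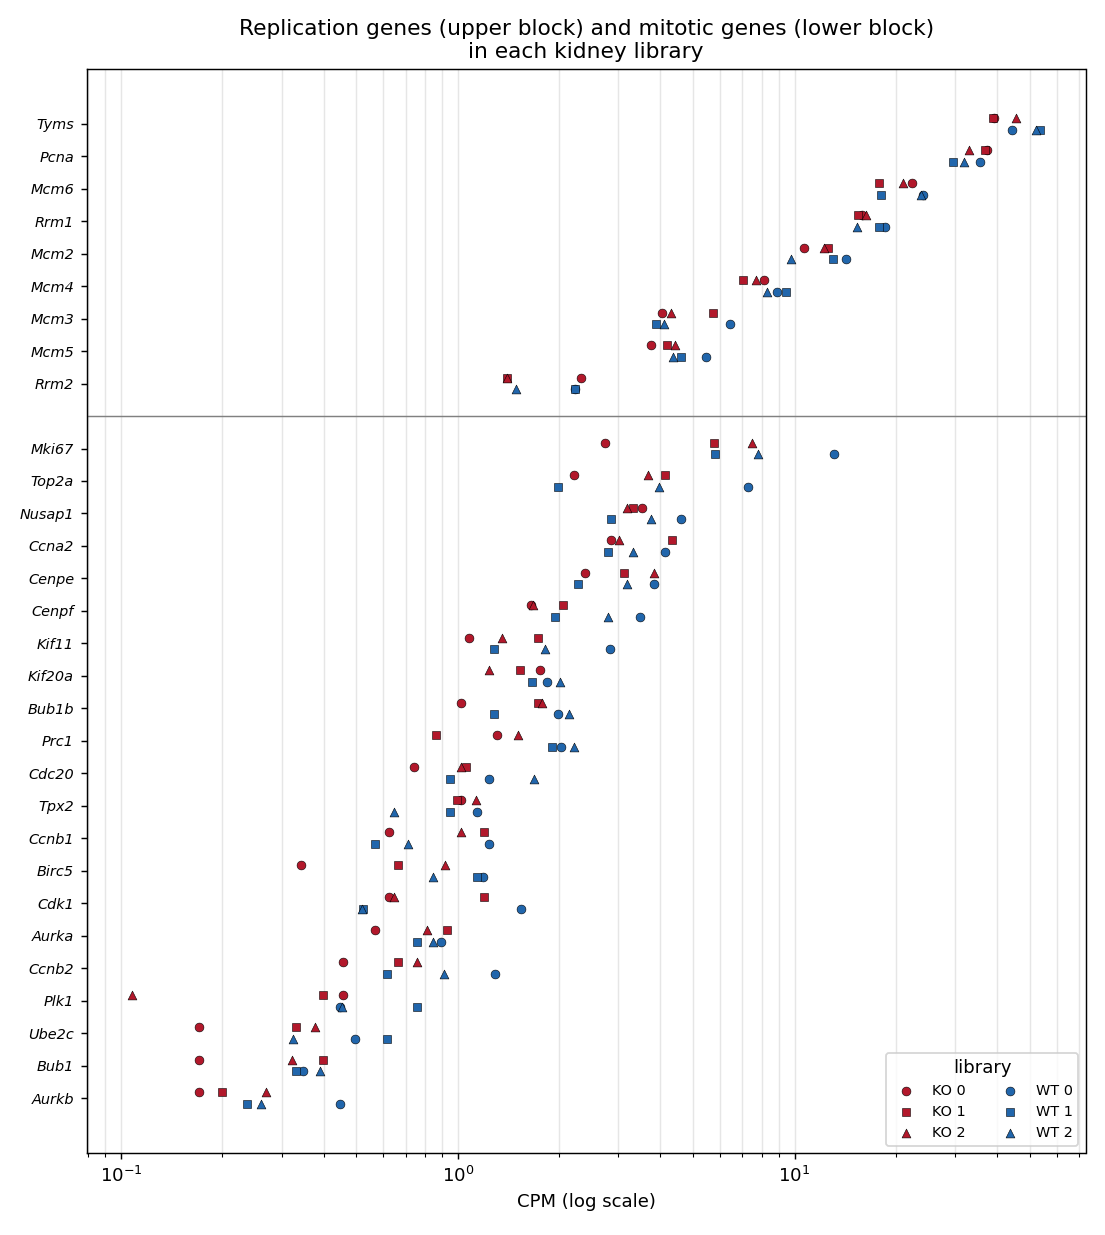
Level of each of the 30 genes in each library, as CPM on a log axis, with the 3 Far2 knockout libraries in red above the 3 wild-type libraries in blue for each gene; the upper block holds the 9 replication genes and the lower block the 21 mitotic genes. The replication genes span 1.40 to 53.6 CPM and their libraries lie close together, while single mitotic genes such as Mki67 run from 2.73 CPM in knockout library 0 to 13.1 CPM in wild-type library 0.

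Among the replication genes, levels per transcript length were highest for Pcna, at a mean of 30.2 FPKM (fragments scaled by gene length and by library size) in knockout and 27.7 FPKM in wild-type libraries. Tyms followed with 10.8 FPKM in knockout and 13.1 FPKM in wild-type libraries, and Mcm6 with 6.37 FPKM in knockout and 6.78 FPKM in wild-type libraries. Rrm1, the large subunit of ribonucleotide reductase, averaged 4 FPKM in knockout and 4.44 FPKM in wild-type libraries. Rrm2, its small subunit, averaged 0.854 FPKM in knockout and 0.997 FPKM in wild-type libraries. Rrm1 was thus the more abundant subunit in both groups. Between the lowest and the highest of the 6 libraries, replication genes differed by 1.21-fold (Rrm1) to 1.67-fold (Rrm2), with a median of 1.38-fold, against 1.3-fold over all tested genes.

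The promoters of 4 chosen replication genes are shown. None of them holds a CHR element, unlike the mitotic promoters printed further below, whereas Mcm5, Mcm6 and Pcna hold CCAAT boxes as those do. Each printed sequence is 170 bases of the RefSeq window on GRCm38.p6. It runs from 150 bases before to 20 bases after the transcription start, read along the gene's strand. Capitals mark CCAAT boxes (CCAAT, or ATTGG on the other strand) and E2F sites (TTTCCCGC, TTTGGCGC, TTTCGCGC, TTTGCCGC, or their reverse complements). In Mcm6 a match on each strand overlaps in a single capital stretch, and the stretch of Tyms holds none of these letters. Mcm5 lies on the plus strand at chr8:75109359-75109528, Mcm6 on the minus strand at chr1:128359686-128359855, Pcna on the minus strand at chr2:132253161-132253330 and Tyms on the minus strand at chr5:30073606-30073775.
Mcm5: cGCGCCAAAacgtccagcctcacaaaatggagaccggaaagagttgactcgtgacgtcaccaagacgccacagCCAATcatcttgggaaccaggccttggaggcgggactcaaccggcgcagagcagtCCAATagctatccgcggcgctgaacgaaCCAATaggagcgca
Mcm6: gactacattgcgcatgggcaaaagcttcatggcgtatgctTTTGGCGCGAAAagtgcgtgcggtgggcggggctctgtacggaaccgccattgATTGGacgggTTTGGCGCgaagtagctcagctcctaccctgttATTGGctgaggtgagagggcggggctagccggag
Pcna: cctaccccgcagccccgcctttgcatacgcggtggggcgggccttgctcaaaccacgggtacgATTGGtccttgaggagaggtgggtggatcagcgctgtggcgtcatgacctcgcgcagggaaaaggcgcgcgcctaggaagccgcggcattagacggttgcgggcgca
Tyms: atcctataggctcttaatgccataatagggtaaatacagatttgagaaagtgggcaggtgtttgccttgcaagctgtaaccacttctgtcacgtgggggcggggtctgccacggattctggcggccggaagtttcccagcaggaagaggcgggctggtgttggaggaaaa

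The 5 helicase subunits overlapped between genotypes except for Mcm4. Mcm4 was at 8.14, 7.05 and 7.66 CPM in knockout libraries and at 8.88, 9.44 and 8.31 CPM in wild-type libraries. All 3 knockout values lie under all 3 wild-type values, though by little, and the log2 fold change was -0.22 (SE 0.11; edgeR adjusted p = 0.607). Groups did not overlap, in the direction of lower knockout values, in 6.96% of all tested genes, so 1 of 9 replication genes is near the background. Mcm5 was at 3.76, 4.19 and 4.42 CPM in knockout libraries and at 5.46, 4.60 and 4.35 CPM in wild-type libraries, with wild-type library 0 the highest. Mcm2 was at 10.7, 12.6 and 12.2 CPM in knockout libraries and at 14.2, 13 and 9.73 CPM in wild-type libraries, the wild type holding both the highest and the lowest value. Mcm6 was at 22.3, 17.8 and 21 CPM in knockout libraries and at 24, 18.1 and 23.7 CPM in wild-type libraries. Mcm3 was at 4.04, 5.72 and 4.31 CPM in knockout libraries and at 6.45, 3.89 and 4.09 CPM in wild-type libraries. The log2 fold changes of these 4 subunits ran from -0.22 (Mcm5) to -0.05 (Mcm3), and those of Mcm2 and Mcm3 turned to 0.04 and 0.23 without wild-type library 0.

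Pcna was the 1 replication gene with a fold change above 0. It was at 37.2, 36.8 and 33.0 CPM in knockout libraries and at 35.6, 29.5 and 31.8 CPM in wild-type libraries. Wild-type library 0 lies among the knockout values and the other 2 wild-type libraries lie under them. Its log2 fold change was 0.14 (SE 0.09; edgeR adjusted p = 0.660). Without wild-type library 0 it was 0.22 (edgeR adjusted p = 0.436), and Pcna was then the 1 replication gene with an unadjusted p under 0.05 and a higher knockout level, as were 4.11% of all tested genes. Counts of Pcna are uncertain, since fragments may be shared with the annotated pseudogenes Pcna-ps1 and Pcna-ps2.

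Tyms, thymidylate synthase, makes the thymidine nucleotide for DNA. It was at 39.2, 38.8 and 45.6 CPM in knockout libraries and at 44.3, 53.6 and 52.2 CPM in wild-type libraries. Wild-type library 0 lies under knockout library 2, and the other 2 wild-type libraries lie over all knockout values. The log2 fold change of Tyms was -0.28 (SE 0.10; edgeR adjusted p = 0.599). Without wild-type library 0 it was -0.36 (edgeR adjusted p = 0.336). Tyms was the 1 of 9 replication genes with an unadjusted p under 0.05 and a lower knockout level, a result that 5.14% of all tested genes gave, and 7.06% without wild-type library 0. The annotation also names a pseudogene, Tyms-ps, with which fragments may be shared. The ribonucleotide reductase subunits overlapped between groups. Rrm1 was at 15.9, 15.4 and 16.3 CPM in knockout libraries and at 18.6, 17.8 and 15.3 CPM in wild-type libraries, and Rrm2 at 2.33, 1.40 and 1.40 CPM in knockout libraries and at 2.23, 2.23 and 1.49 CPM in wild-type libraries.

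The mitotic genes were the scarcer class. Summed over its genes, a library held 455, 551 and 670 mitotic fragments in the knockout group and 1117, 658 and 625 in the wild-type group. The replication genes held 2524, 2104 and 2706 fragments in knockout libraries and 3217, 3210 and 2327 in wild-type libraries. Per length, mean levels over all libraries ran from 0.0817 FPKM for Bub1 to 1.37 FPKM for Ccna2. The filter on low counts kept 17 of the 21 mitotic genes and all 9 replication genes. Bub1, Aurkb, Plk1 and Ube2c did not pass it.

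The promoters of 4 chosen mitotic genes are shown, each with a CHR element, which none of the replication promoters printed above holds. CCAAT boxes occur in both printed sets, and Cdk1 also holds an E2F site. Because the genes were chosen, the printed sequences do not test a contrast of the classes. Counts over all windows are given further below. Windows and strands follow the same rule, and capitals mark CHR elements (TTTGAA or TTCGAA, which is its own reverse complement, and TTCAAA on the other strand) as well as CCAAT boxes and E2F sites. Prc1 lies on the plus strand at chr7:80294301-80294470, Cenpf on the minus strand at chr1:189688067-189688236, Mki67 on the minus strand at chr7:135716360-135716529 and Cdk1 on the minus strand at chr10:69352893-69353062.
Prc1: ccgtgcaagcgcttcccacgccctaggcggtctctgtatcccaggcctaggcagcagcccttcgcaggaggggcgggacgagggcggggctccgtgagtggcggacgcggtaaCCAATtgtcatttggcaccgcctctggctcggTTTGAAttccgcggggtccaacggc
Cenpf: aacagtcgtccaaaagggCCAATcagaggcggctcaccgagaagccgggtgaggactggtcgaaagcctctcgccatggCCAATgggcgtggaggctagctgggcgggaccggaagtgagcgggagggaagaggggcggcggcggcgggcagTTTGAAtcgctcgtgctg
Mki67: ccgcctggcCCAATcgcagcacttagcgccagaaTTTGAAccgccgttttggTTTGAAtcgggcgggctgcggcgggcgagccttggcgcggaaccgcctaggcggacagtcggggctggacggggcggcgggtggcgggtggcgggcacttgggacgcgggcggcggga
Cdk1: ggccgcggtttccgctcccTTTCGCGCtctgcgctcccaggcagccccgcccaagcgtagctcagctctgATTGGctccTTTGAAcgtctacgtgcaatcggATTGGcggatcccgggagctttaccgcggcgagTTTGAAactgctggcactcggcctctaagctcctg

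Prc1 encodes a protein that bundles the microtubules of the central spindle. It was at 1.31, 0.864 and 1.51 CPM in knockout libraries and at 2.03, 1.90 and 2.21 CPM in wild-type libraries. No knockout value reached a wild-type value, and wild-type library 0 did not stand out. For Prc1 the log2 fold change was -0.71 (SE 0.26; edgeR adjusted p = 0.599), and leaving out wild-type library 0 left it at -0.71 (edgeR adjusted p = 0.426). Its unadjusted p was under 0.05 both times. These levels rest on 23, 13 and 28 fragments in knockout libraries and on 41, 40 and 34 in wild-type libraries. Prc1 was the 1 gene of 17 whose groups did not overlap, against the 6.96% over all tested genes, so this count is near the background. Its exons overlap those of Rccd1 on the other strand by 911 bases (GENCODE annotation of GRCm38), and the strand setting of the counts is not given in the sources used here, so its count is uncertain.

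Cenpf, a large kinetochore protein, was at 1.65, 2.06 and 1.67 CPM in knockout libraries and at 3.47, 1.94 and 2.79 CPM in wild-type libraries. Knockout library 1 lies over wild-type library 1, so the groups overlap. Its log2 fold change was -0.61 (SE 0.26; edgeR adjusted p = 0.599) with all libraries and -0.39 (edgeR adjusted p = 0.592) without wild-type library 0. Together with Prc1 this makes 2 of 17 mitotic genes with an unadjusted p under 0.05 and a lower knockout level, against the 5.14% of all tested genes. Leaving out wild-type library 0, it is 1 of 17 (Prc1), against the 7.06% of all tested genes.

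Mki67 encodes Ki-67, the coat protein of mitotic chromosomes used as a marker of dividing cells. It was at 2.73, 5.78 and 7.49 CPM in knockout libraries and at 13.1, 5.79 and 7.79 CPM in wild-type libraries. The outer values were those of knockout library 0 and wild-type library 0, and the other 4 libraries of the 2 genotypes covered the same range. The log2 fold change was -0.74 (SE 0.36; edgeR adjusted p = 0.603) with all libraries. It was -0.33 once wild-type library 0 was left out, and -0.42 once knockout library 0 was. The highest library held 4.81 times the level of the lowest. In the authors' deposited table Mki67 had a log2 fold change of -0.75 and a q-value of 0.0106, and it was the 1 gene of these 30 with a q-value under 0.05 there. In the authors' deposited table, 88 of 13404 genes with a completed test had such a q-value. Prc1 had a q-value of 0.395 in the authors' deposited table. No completed test was given there for Ccnb1, Cdk1, Bub1, Bub1b, Aurka, Aurkb, Plk1, Cenpe, Cenpf, Kif11, Kif20a and Tpx2.

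Top2a, the topoisomerase that untangles chromosomes, was at 2.22, 4.12 and 3.67 CPM in knockout libraries and at 7.29, 1.99 and 3.96 CPM in wild-type libraries. Its highest and lowest values are both wild type. The log2 fold change was -0.41 (SE 0.41; edgeR adjusted p = 0.771), and 0.20 without wild-type library 0. Top2a overlaps another annotated gene of its strand by 122 exon bases, so its count is uncertain. Cdk1, the kinase that drives entry into mitosis, was at 0.626, 1.2 and 0.647 CPM in knockout libraries and at 1.54, 0.522 and 0.519 CPM in wild-type libraries. Wild-type library 0 was the highest for Cdk1 and the other 2 wild-type libraries were the lowest, so that the log2 fold change was -0.11 with that library and 0.63 without it. Its partner Ccnb1 (cyclin B1) was at 0.626, 1.2 and 1.02 CPM in knockout libraries and at 1.24, 0.569 and 0.714 CPM in wild-type libraries, with wild-type library 0 again the highest and wild-type library 1 the lowest. Ccnb1 had a log2 fold change of 0.16 with all libraries and 0.57 without wild-type library 0, and the annotation names a pseudogene, Ccnb1-ps. Ccnb2 (cyclin B2) had a log2 fold change of -0.58 with all libraries and -0.25 without wild-type library 0, and its annotated pseudogene is Ccnb2-ps. Ccna2 (cyclin A2), which acts in both S phase and mitosis, was at 2.85, 4.32 and 3.02 CPM in knockout libraries and at 4.12, 2.80 and 3.31 CPM in wild-type libraries, with a log2 fold change of -0.02.

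The spindle motors and spindle proteins were mixed. Kif11, the motor that parts the spindle poles, was at 1.08, 1.73 and 1.35 CPM in knockout libraries and at 2.83, 1.28 and 1.82 CPM in wild-type libraries, and its log2 fold change of -0.52 became -0.15 without wild-type library 0. Kif20a, a motor of cytokinesis, was at 1.76, 1.53 and 1.24 CPM in knockout libraries and at 1.84, 1.66 and 2.01 CPM in wild-type libraries, and its log2 fold change of -0.28 was -0.27 without that library. Nusap1 had a log2 fold change of -0.16, Tpx2 of 0.18 and the kinetochore motor Cenpe of 0.02, all with overlapping groups. Among the genes of the spindle checkpoint and of exit from mitosis, Bub1b had a log2 fold change of -0.24 and Cdc20 of -0.43. Cdc20 was at 0.740, 1.06 and 1.02 CPM in knockout libraries and at 1.24, 0.949 and 1.69 CPM in wild-type libraries. Birc5 (survivin), of the chromosomal passenger complex, was at 0.342, 0.665 and 0.916 CPM in knockout libraries and at 1.19, 1.14 and 0.844 CPM in wild-type libraries. Only knockout library 2 overlaps the wild-type values of Birc5, and the log2 fold change was -0.73 (SE 0.38; edgeR adjusted p = 0.607). Aurka, a kinase of the spindle poles, had a log2 fold change of -0.12.

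The 4 genes under the filter rest on few fragments. Plk1, a mitotic kinase, had 8, 6 and 2 fragments in knockout libraries and 9, 16 and 7 in wild-type libraries. Ube2c, which works with the anaphase-promoting complex, had 3, 5 and 7 fragments in knockout libraries and 10, 13 and 5 in wild-type libraries. Aurkb, the passenger complex kinase, had 3, 3 and 5 fragments in knockout libraries and 9, 5 and 4 in wild-type libraries. Bub1, a checkpoint kinase, had 3, 6 and 6 fragments in knockout libraries and 7, 7 and 6 in wild-type libraries. These genes were left out of the main fit. Fitted with no filter, the log2 fold change was -0.81 for Plk1, -0.72 for Ube2c, -0.54 for Aurkb and -0.26 for Bub1. The edgeR adjusted p ran from 0.728 (Plk1) to 0.902 (Bub1), so none passed the test. So few fragments limit what could be detected. Exons of Ccna2, Cdc20, Kif20a, Nusap1, Plk1 and Ube2c overlap genes on the other strand, so their counts are uncertain in the way that holds for Prc1.

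**Figure D2:**
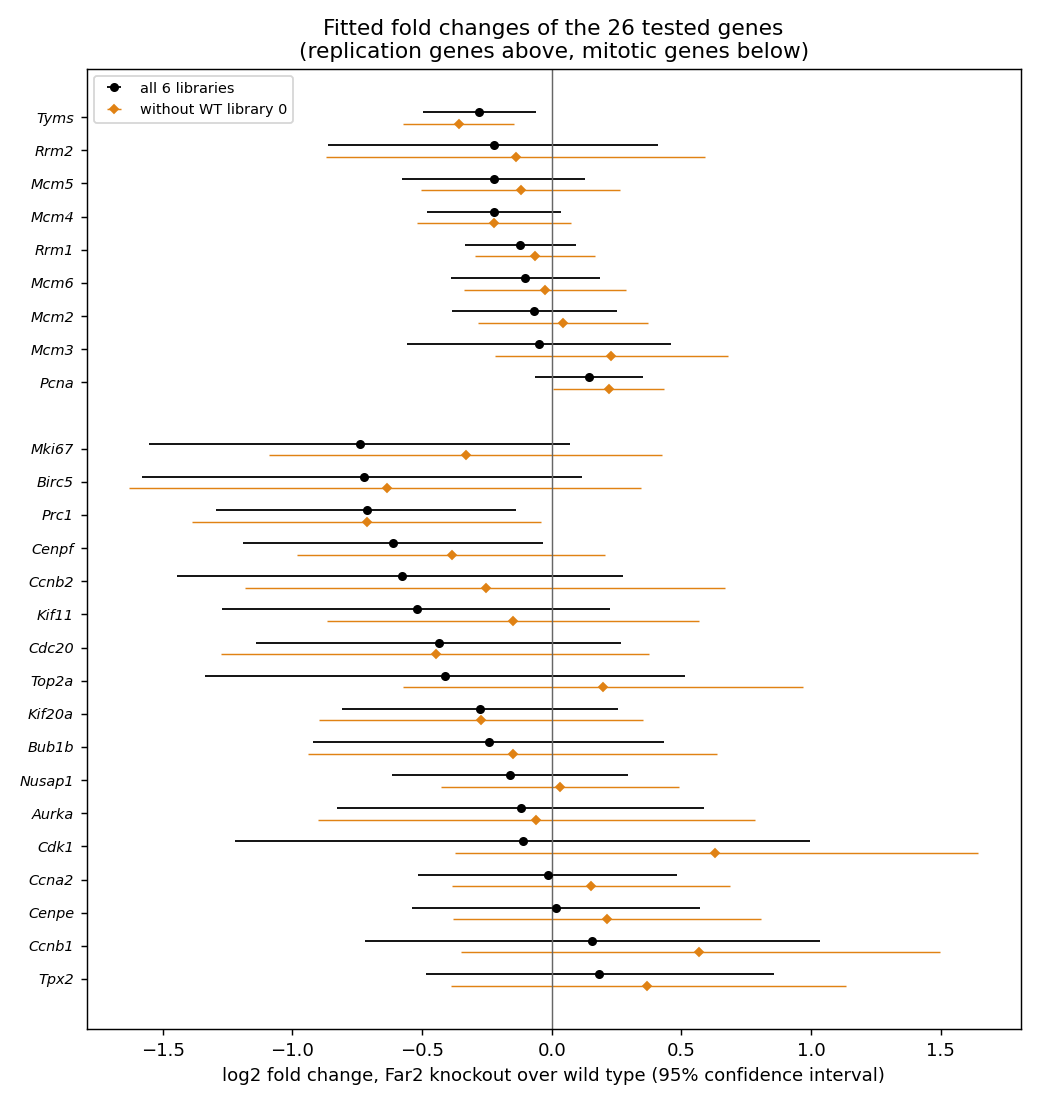
Fitted log2 ratio of knockout to wild type with its 95% confidence interval for the 26 genes that passed the filter, from all 6 libraries (black circles) and without wild-type library 0 (orange diamonds). With all 6 libraries 3 intervals exclude 0, those of Tyms, Prc1 and Cenpf, and without wild-type library 0 the estimates of Cdk1, Top2a, Mcm2, Mcm3, Ccna2 and Nusap1 move from below to above 0.

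Over all tested genes, 0 of 14354 passed a Benjamini-Hochberg adjusted p under 0.05 in edgeR's quasi-likelihood test (0% of genes), and so 0 of the 26 tested genes of the cell cycle did. At an unadjusted p under 0.05, edgeR found 1193 genes (8.31%), among them Tyms, Prc1 and Cenpf. DESeq2 called 13 genes (0.0906%) and none of the 30. Of the replication genes, 8 of 9 had a log2 fold change below 0, with a median of -0.12. Of the tested mitotic genes, 14 of 17 were below 0, with a median of -0.28. With the 4 genes under the filter counted too, mean CPM was lower in knockout for 18 of 21 mitotic genes, or 14 of 21 without wild-type library 0. Over all tested genes 51.7% were below 0, with a median of -0.01. Leaving out wild-type library 0, the counts were 6 of 9 replication genes with a median of -0.07 and 10 of 17 mitotic genes with a median of -0.15, against 49.9% of all tested genes and a median of 0.00. Without that library groups failed to overlap in 15.4% of all tested genes with knockout values lower and in 14.2% with knockout values higher. The counts among the replication genes were then 2 lower and 1 higher, and among the mitotic genes 1 lower and 2 higher.

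Set against each other in each library, the classes differed in level and in spread. The mean log2(CPM + 0.5) of the 9 replication genes was 3.5, 3.46 and 3.48 in knockout libraries and 3.72, 3.57 and 3.48 in wild-type libraries. That of the 21 mitotic genes was 0.58, 0.89 and 0.84 in knockout libraries and 1.24, 0.78 and 0.97 in wild-type libraries. Replication levels were nearly the same in the 3 knockout libraries, while mitotic levels were spread in both groups. The group means of the replication level were 3.48 ± 0.02 in knockout and 3.59 ± 0.12 in wild type (SD, n = 3 each). Those of the mitotic level were 0.77 ± 0.17 in knockout and 0.995 ± 0.23 in wild type (SD, n = 3 each). The knockout minus wild-type difference was -0.11 for the replication level and -0.23 for the mitotic level. In size each is larger than the SD of the knockout libraries and slightly smaller than that of the wild-type libraries. With 3 libraries per group this does not settle whether the levels differ. The mitotic difference was -0.11 when wild-type library 0 was left out, -0.13 when knockout library 0 was, and -0.01 when both were. Leaving out the lowest knockout or the highest wild-type library had to raise this difference, so these values do not test whether it is 0.

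The balance of the classes, mitotic minus replication on the log2 scale, was -2.92, -2.57 and -2.63 in knockout libraries and -2.48, -2.78 and -2.51 in wild-type libraries. Its group means were -2.71 ± 0.19 in knockout and -2.59 ± 0.17 in wild type (SD, n = 3 each). The difference of -0.12 is smaller than either SD. It became -0.06 with wild-type library 0 left out, -0.01 with knockout library 0 left out and 0.04 with both left out. These libraries were also the lowest and the highest in balance, so a rise was built into leaving them out. As summed CPM, the mitotic genes made 18.0%, 26.2% and 24.8% of the replication genes' level in knockout libraries and 34.7%, 20.5% and 26.9% in wild-type libraries. Mki67 and Top2a carry part of that sum. Without these 2 genes the mitotic sum was 21, 26.7 and 25 CPM in knockout libraries and 35, 23.4 and 28.8 CPM in wild-type libraries, and the same libraries were the lowest and the highest.

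**Figure D3:**
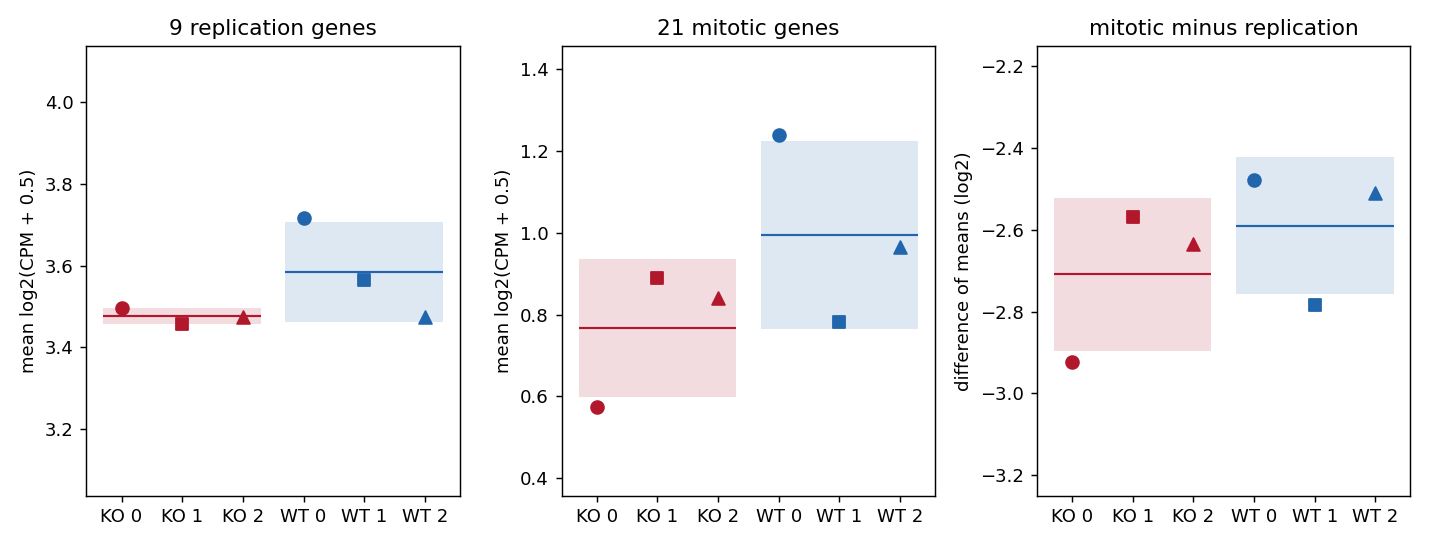
Mean log2(CPM + 0.5) of the 9 replication genes (left) and the 21 mitotic genes (middle), and the mitotic minus the replication mean (right), in each library, with knockout in red and wild type in blue; lines are group means, shaded bands are ± 1 SD of 3 libraries, and all 3 axes span the same log2 distance. The mitotic level of knockout library 0 (0.58) and that of wild-type library 0 (1.24) are the outer points, and the balance of the other 4 libraries runs from -2.78 to -2.51.

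The spread was shared across the mitotic genes. Knockout library 0 was the lowest library for 11 of 21 mitotic genes and the highest for 0, and wild-type library 0 was the highest for 11 of 21 and the lowest for 0. For comparison, knockout library 0 was the lowest in 13.3% of all tested genes and wild-type library 0 the highest in 17.1%. The 21 mitotic genes include those under the filter on low counts, which shares over all tested genes leave out. The median ratio of the highest to the lowest library was 2.33-fold for the mitotic genes, from 1.54-fold for Ccna2 to 7.04-fold for Plk1, whose lowest library held 2 fragments. Low counts alone raise such ratios, and how much of the spread they make up was not tested. Pairs of libraries show the same. Knockout library 0 had the lower level in 20 of 21 mitotic genes against wild-type library 0, in 13 against wild-type library 1 and in 18 against wild-type library 2. Knockout library 1 had the lower level in 18 of 21 against wild-type library 0, in 7 against library 1 and in 13 against library 2. Knockout library 2 had the lower level in 20 of 21 against wild-type library 0, in 7 against library 1 and in 14 against library 2. Over all tested genes these shares lay between 49.3% and 52.4%. Wild-type library 1 thus held less mitotic RNA than knockout libraries 1 and 2 in most of these genes. Among the replication genes the knockout library had the lower level in 4 to 8 of 9, depending on the pair.

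Marker lists of injury, macrophages, T and NK cells and fibroblasts were also highest in wild-type library 0, while those of B cells and neutrophils were not. The mitotic genes summed to 25.9, 36.6 and 36.1 CPM in knockout libraries and to 55.4, 31.2 and 40.6 CPM in wild-type libraries. The 14 tubular injury genes summed to 923, 924 and 803 CPM in knockout libraries and to 1630, 807 and 822 CPM in wild-type libraries, with 12 of 14 highest in wild-type library 0. Lcn2, a secreted injury marker, was at 1.37, 1.99 and 1.56 CPM in knockout libraries and at 9.38, 1.61 and 1.3 CPM in wild-type libraries. Spp1 made up much of the injury sum, at 580, 542 and 448 CPM in knockout libraries and 988, 470 and 473 CPM in wild-type libraries. Of the 14 injury genes, Cd44, C3, Timp1 and Sox9 were lowest in knockout library 0. The others were lowest in other libraries, and the injury sum was lowest in knockout library 2. The 15 macrophage genes, led by Csf1r, Lyz2 and Ctss, summed to 137, 180 and 177 CPM in knockout libraries and to 327, 172 and 163 CPM in wild-type libraries, with 14 of 15 highest in wild-type library 0. The 9 T and NK cell genes summed to 2.11, 5.98 and 5.34 CPM in knockout libraries and to 11.4, 4.79 and 4.48 CPM in wild-type libraries, all 9 highest in wild-type library 0. Cd3d, a defining T cell gene, had 0, 3 and 7 fragments in knockout libraries and 26, 3 and 4 in wild-type libraries. By the sums of the macrophage list and of the T and NK cell list, knockout library 0 was the lowest library, as it was by the mitotic sum. By single gene, other libraries were the lowest for some genes of both lists. The 4 B cell genes summed to 1.2, 2.13 and 5.18 CPM in knockout libraries and to 4.37, 1.33 and 2.79 CPM in wild-type libraries, and the 4 neutrophil genes to 3.53, 3.46 and 6.74 CPM in knockout libraries and to 4.86, 6.31 and 4.28 CPM in wild-type libraries. Both lists were highest in knockout library 2. The 8 fibroblast genes summed to 217, 192 and 203 CPM in knockout libraries and to 328, 211 and 224 CPM in wild-type libraries, all 8 highest in wild-type library 0. The part of these cells or of injury in the mitotic levels was not tested.

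**Figure D4:**
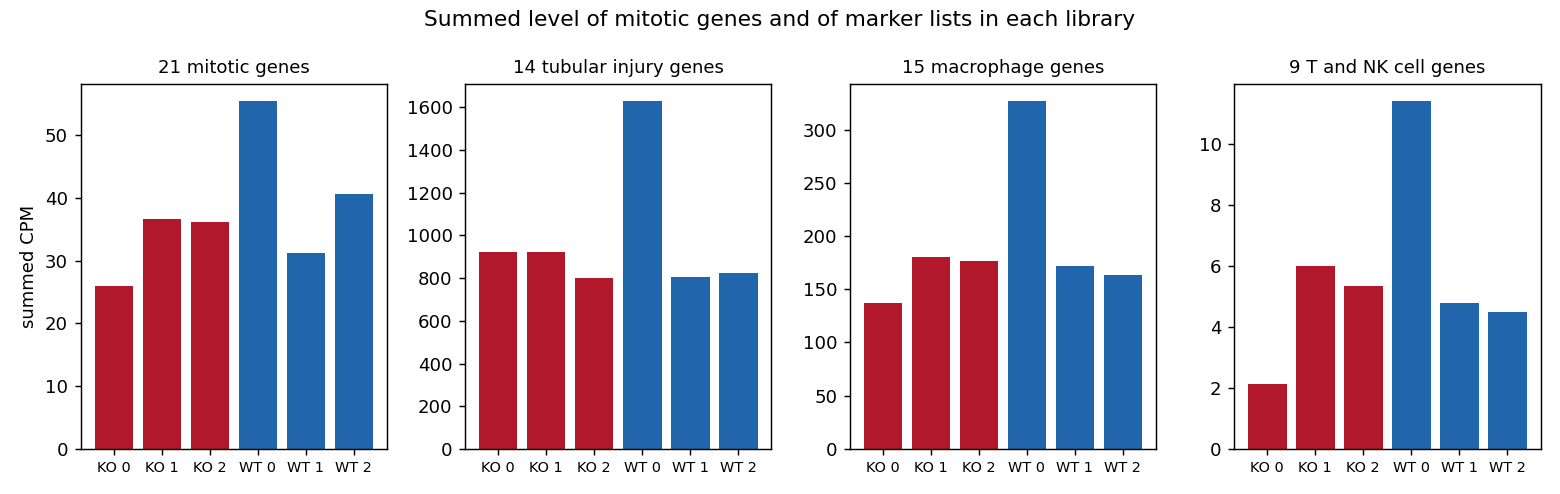
Summed CPM of the 21 mitotic genes and of the tubular injury, macrophage and T and NK cell marker lists in each library, knockout libraries in red and wild-type libraries in blue, each panel with its own axis from 0. Knockout library 0 is the lowest bar for the mitotic, macrophage and T and NK cell genes, and wild-type library 0 is the highest bar in all 4 panels, at 55.4, 1630, 327 and 11.4 CPM.

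Further genes of the same steps were tested as lists. Of 47 further replication genes (origin licensing, polymerases, clamp loader), 45 were tested, 25 had a log2 fold change below 0 and the median was -0.03. Of them 0 of 45 had an unadjusted p under 0.05 with a lower knockout level and 1 with a higher level, against 3.17% of all tested genes. That gene is Gmnn (geminin, which blocks a second round of replication), at 7, 7.91 and 7.06 CPM in knockout libraries and 5.95, 5.60 and 5.19 CPM in wild-type libraries (log2 fold change 0.39, SE 0.13; edgeR adjusted p = 0.599). The groups of Gmnn did not overlap, as in 7.12% of all tested genes with knockout values higher. Uhrf1, which carries DNA methylation through replication, had a log2 fold change of -0.51 and the ligase Lig1 one of -0.40, neither past the test. Lig1 overlaps a gene on the other strand, so its count is uncertain.

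Of 52 further mitotic genes, 37 were tested, 30 had a log2 fold change below 0 and the median was -0.21. With wild-type library 0 left out, 24 of 36 were below 0, at a median of -0.12. Wild-type library 0 was the highest library for 28 of the 52, against the 17.1% of all tested genes. The 52 include genes under the filter on low counts, which that share leaves out. At an unadjusted p under 0.05, 1 of 37 was lower in knockout libraries (Aspm) and 1 higher (Spc25), and groups did not overlap with knockout values lower in 5 of 37, against the 6.96% of all tested genes. Aspm, a spindle pole protein, was at 0.797, 1.33 and 1.40 CPM in knockout libraries and at 2.58, 1.61 and 1.69 CPM in wild-type libraries (log2 fold change -0.74, SE 0.31; edgeR adjusted p = 0.599). Racgap1, of the central spindle like Prc1, was at 1.02, 1.40 and 1.13 CPM in knockout libraries and at 1.94, 1.66 and 1.49 CPM in wild-type libraries (log2 fold change -0.53; edgeR adjusted p = 0.603). Neither gene's groups overlapped. Spc25, a kinetochore gene, went the other way, at 13.9, 14.8 and 12.8 CPM in knockout libraries and 11.6, 10.7 and 11.6 CPM in wild-type libraries (log2 fold change 0.29, SE 0.10; edgeR adjusted p = 0.599).

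Among 20 regulators of these genes (E2F factors, DREAM subunits, B-Myb and FoxM1), 18 were tested, 9 were below 0 and the median was 0.00. Foxm1, an activator of mitotic genes, was at 0.683, 0.332 and 0.485 CPM in knockout libraries and at 0.893, 0.806 and 0.973 CPM in wild-type libraries (log2 fold change -0.80, SE 0.35; edgeR adjusted p = 0.599). Mybl2, which encodes B-Myb, was at 0.342, 0.930 and 0.701 CPM in knockout libraries and at 0.794, 1.23 and 1.69 CPM in wild-type libraries (log2 fold change -0.90, SE 0.42; edgeR adjusted p = 0.603). For neither of these activators was wild-type library 0 the highest. Both were scarce, so their estimates rest on few fragments. The exons of Foxm1 overlap other genes of its strand, so its count is uncertain. E2f2 was at 4.95, 5.52 and 3.72 CPM in knockout libraries and at 3.67, 2.85 and 3.63 CPM in wild-type libraries (log2 fold change 0.48, SE 0.20; edgeR adjusted p = 0.599).

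Genes that act before S phase or halt the cycle were tested as well. Of 9 tested cyclins, kinases and drivers of G1, 7 were below 0, with a median of -0.06. Ccnd1 (cyclin D1) was at 184, 171 and 175 CPM in knockout libraries and at 181, 276 and 211 CPM in wild-type libraries (log2 fold change -0.34, SE 0.13; edgeR adjusted p = 0.599). Myc had a log2 fold change of -0.42 (edgeR adjusted p = 0.599) and Cdc25a one of -0.13. Of 13 tested genes of arrest, 7 were below 0, with a median of -0.01, and 3 had an unadjusted p under 0.05 with a lower knockout level, against the 5.14% of all tested genes. Leaving out wild-type library 0, there was 1 with a lower level (Gadd45g), against 7.06% of all tested genes, and 2 with a higher level, against 4.11%. Gadd45g, a stress-induced inhibitor, was at 10.5, 8.04 and 10.2 CPM in knockout libraries and at 12.1, 13.9 and 14.1 CPM in wild-type libraries (log2 fold change -0.47, SE 0.12; edgeR adjusted p = 0.599). Cdkn1c (p57) had a log2 fold change of -0.28 and Cdkn1a (p21) one of -0.54, both at an edgeR adjusted p of 0.599. Exons of Cdkn1c, Cdkn1a and Ccnd1 overlap annotated genes on the other strand, so these counts are uncertain. None of the 5 lists held a gene past the test.

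The promoter windows of the 2 classes differed in the motifs they hold. RefSeq windows of 250 bases before to 50 bases after the start were found for 25 of the 30 genes, and none was used for Mcm4, Ccna2, Aurkb, Kif20a and Tpx2. Each gene counts once, by the first window listed for it. A CHR element stood in the window of 13 of 17 mitotic genes (76.5%) and of 1 of 8 replication genes (12.5%, Mcm2), against 19.4% of all 27025 genes with a window. Within 50 bases before the start or after it, 12 of 17 mitotic genes (70.6%) and 0 of 8 replication genes held a CHR element, against 5.29% of all genes. In Prc1 and Cenpf it is the capital TTTGAA near the end of the printed sequence, and Mki67 is the mitotic gene whose CHR letters lie only farther upstream. The windows of Ccnb1, Birc5, Cenpe and Nusap1 hold no CHR letters. An E2F site stood in the window of 1 of 17 mitotic genes (Cdk1) and of 3 of 8 replication genes (Mcm3, Mcm5 and Mcm6), against 2.32% of all genes. CCAAT boxes were found for 15 of 17 mitotic genes (88.2%), 7 of 8 replication genes (87.5%) and 37.9% of all genes. The GC box GGGCGG was found for 82.4% of mitotic genes, 75.0% of replication genes and 35.9% of all genes. Among the further genes, a CHR element was found for 34 of 45 mitotic genes (75.6%) and 7 of 38 replication genes (18.4%), and an E2F site for 5 of 45 mitotic genes (11.1%) and 12 of 38 replication genes (31.6%). CCAAT boxes were found for 66.7% of the further mitotic genes and 50% of the further replication genes. Motifs were searched on both strands, and a match is a description of the letters only.

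**Figure D5:**
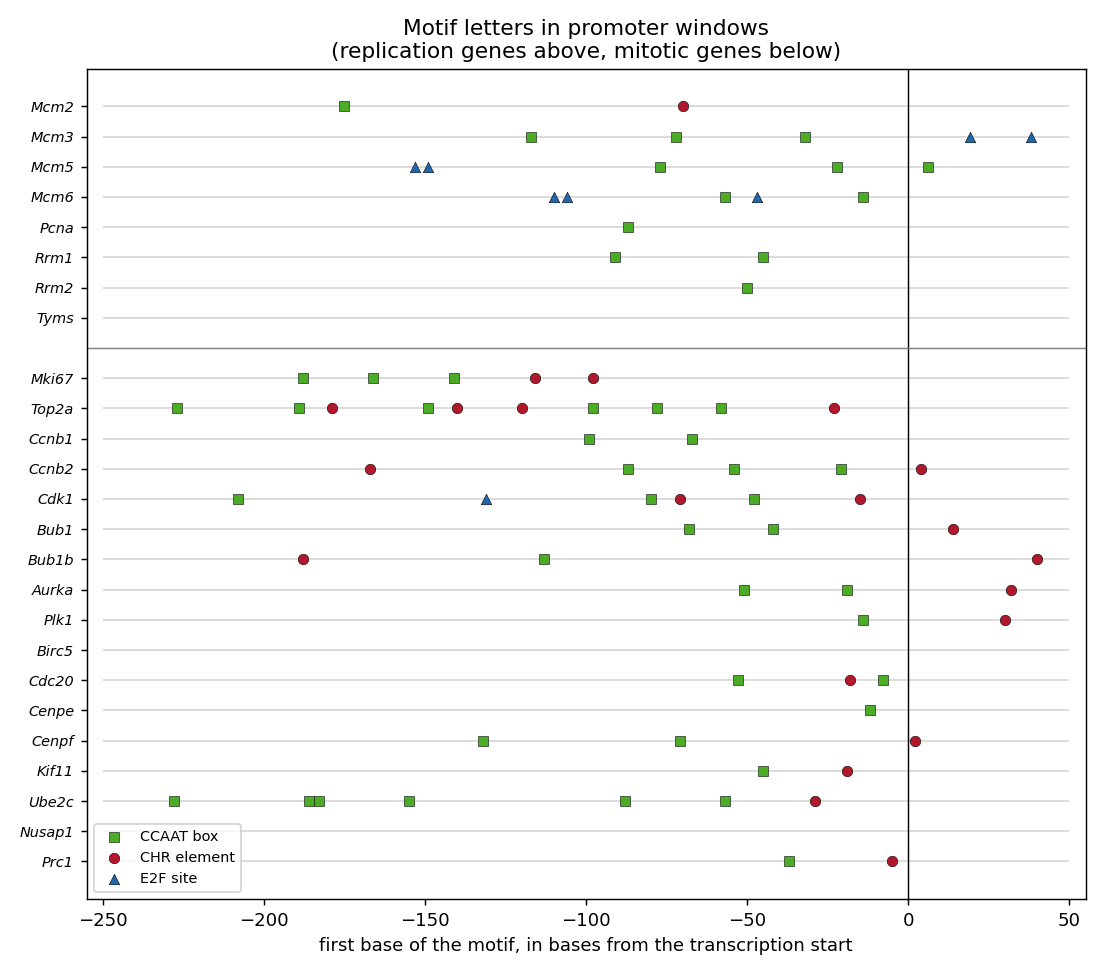
Position of CCAAT boxes (green squares), CHR elements (red circles) and E2F sites (blue triangles) in the promoter windows of 8 replication genes (upper block) and 17 mitotic genes (lower block), as the distance of the motif's first base from the transcription start. CHR elements of 12 mitotic genes lie within 50 bases before the start or after it, and the E2F sites lie in Mcm3, Mcm5, Mcm6 and Cdk1.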

How the data were processed

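Per the labels' protocols, total RNA of 6 kidneys went into stranded libraries after ribosomal RNA removal. With no role or order, the submitters' processing notes list mm10, Cuffdiff, Cufflinks 2.2.1, TopHat2 2.0.13, cutadapt 1.2.1, SAMtools 1.2 and Bowtie2 2.2.3. For gene models and the strand setting, the sources used here give nothing. For each library the authors deposited FPKM and an estimated count of fragments per gene, which is whole for all 30 genes. The comparison table they deposited holds, per the file headers, each gene's log2 fold change (knockout over wild type), q-value and p-value.

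Estimated counts were rounded, filtered with filterByExpr (14354 of 23396 genes kept), scaled by TMM and compared in R 4.3.3 with edgeR 4.0.16 (quasi-likelihood, 2 groups, two-sided, Benjamini-Hochberg). The test was tried on simulated data first. Libraries of a group differed by 5.89 to 23.7 times the counting variance, so none repeats another. Class levels are means of log2(CPM + 0.5) over all genes of a class, with no test. DESeq2 1.42.0, limma 3.58.1, other scalings, filters and pseudocounts, and leaving out libraries were alternatives. Leaving out knockout library 0 and wild-type library 0 together, and counting without wild-type library 0, were chosen after seeing the data. Promoters come from RefSeq (GRCm38.p6) and overlaps from GENCODE (GRCm38). Tables and figures used Python 3.11.15.

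The 30 genes and all lists were chosen with earlier results of these data known. The text names all 30, the 3 genes with the smallest p of each further list, Far2, Havcr1, Lcn2 and up to 3 abundant genes of a marker list. Cd3d, Cd44, C3, Timp1 and Sox9 were chosen after their values were seen. Few fragments limit precision for most mitotic genes.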

Additional observations from a re-analysis of the deposited data

How the results depend on the processing

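Single genes were fitted under 14 alternatives, leaving out the 1 CPM filter for Ccnb2, Cdk1, Aurka and Birc5, which it removed, and not with 2 libraries left out together. In those fits 0 of 26 passed the threshold and 17 of 26 kept their direction. Over all genes, the count of calls was 1 with no filter, 13 with DESeq2 and from 0 to 1 when 1 library was left out (1 without knockout library 2 and 1 without wild-type library 2), against 0 as reported. Leaving out 1 library put the replication median between -0.20 and -0.07, the mitotic median between -0.45 and -0.15 and the class balance difference between -0.22 and -0.01. Without knockout library 0 and wild-type library 0 together the mitotic median was 0.00 (0.003 before rounding). These libraries had the lowest and the highest mitotic level, so the choice itself favours a rise. The cause was not tested. On log2(FPKM + 1) the mitotic median was -0.09 and the replication median -0.11. Adding 1 draws log ratios towards 0 in genes under 1 FPKM, as most mitotic genes were. On log2(FPKM + 0.1) the mitotic median was -0.235 and the replication median -0.141. With no filter the mitotic median was -0.41, but over all 21 mitotic genes instead of the 17 of the main fit. Fold changes over all genes shifted by a median of 0.004 under that setting. The class balance difference was -0.20 with a pseudocount of 0.1 CPM and -0.08 with 1 CPM, against -0.12. Among directions that turned, Cdk1 was at 0.019 with limma-voom and at 0.022 on log2(FPKM + 0.1), Mcm3 at 0.01 on log2(FPKM + 0.1), and Cenpe at 0 after rounding on log2(FPKM + 1). With 1 library left out, log2 fold changes ran from -0.203 to 0.044 for Mcm2, -0.21 to 0.23 for Mcm3, -0.22 to 0.15 for Ccna2, -0.45 to 0.63 for Cdk1, -0.26 to 0.06 for Aurka, -0.078 to 0.568 for Ccnb1, -0.17 to 0.21 for Cenpe, -0.77 to 0.20 for Top2a and -0.328 to 0.032 for Nusap1. No paired analysis was possible because the library numbers match no sample label and the labels give no replicate numbers. Depth limits Bub1, Aurkb, Plk1 and Ube2c most.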
